A study of Mus musculus with 3 samples.

Results

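The proliferins are a small group of closely related genes of the prolactin family, listed in the deposited files as Prl2c1, Prl2c2, Prl2c3, Prl2c4 and Prl2c5. They were taken by name, as every row whose symbol starts with Prl2c, which gave 5 of 22068 genes. Prl2c2 was chosen for its ratio of the overexpression library to the control, so its levels and ratios are given as a description without a test. RNA was sequenced from differentiating C2C12 cells, a mouse myoblast line that fuses into myotubes when serum is lowered. Stable lines had been infected with a lentivirus and selected with blasticidin. All were grown in medium with 10% fetal bovine serum and harvested after 12 h in medium with 2% horse serum. The control line carried the empty vector, the overexpression line carried Linc-RAM, which the methods place behind a CMV promoter, and the knockdown line carried a short hairpin RNA against Linc-RAM. Linc-RAM is a long non-coding RNA of skeletal muscle that binds the muscle transcription factor MyoD, and the series asked how its level changes gene expression. With 1 library per condition, differences between the conditions could not be checked on replicates. Whether a line was a clone or a pool of infected cells is not given in the sources used here.

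Proliferins are secreted glycoproteins. In the mouse they are best known from the trophoblast giant cells of the placenta, where they promote the growth of blood vessels, and from cultured fibroblasts, where serum and growth factors induce them. Proliferin carries mannose 6-phosphate and binds the cation-independent mannose 6-phosphate receptor, the product of Igf2r. The control region of a proliferin gene is a textbook case of a DNA element read by both AP-1 (Jun and Fos proteins) and the glucocorticoid receptor. In cultured myoblasts, proliferin has been described as an inhibitor of differentiation.

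The files hold RPKM values, that is reads scaled by the length of the gene and by the read total of the library. The read totals behind the values were recovered from the values themselves. The control had 5130481 reads and the overexpression library 2105512, or 41.0% of that number, while knockdown had 1878145, or 36.6%. Linc-RAM itself, the gene 2310015B20Rik, had 1.07 RPKM with overexpression and was at 0 elsewhere, and so it does not check the labels. Its value corresponds to 443 nt per read, that is 1 read if the gene model was 443 nt long. For C2C12 cells, the paper reports knockdown and overexpression of Linc-RAM by RT-qPCR. All 8 listed myoblast markers reached a mean of 1 RPKM over the libraries, and their summed level was 414 RPKM for the control line, 617 for the overexpression line and 264 for the knockdown line. Most of that sum was Des, the intermediate filament of muscle, at 291, 386 and 145 RPKM. Above the control were 8 of the 8 with overexpression and 4 with knockdown, with median log2 ratios of 0.66 and −0.04. Over all genes that averaged 1 RPKM or more, these medians were 0.00 and −0.02. Of 8 fibroblast and tenocyte markers, 5 reached that mean, with sums of 275, 242 and 254 RPKM in that order, and Thy1, Lum and Tnmd were listed at 0. Most of this sum was Col1a1 and Col3a1, and its members differed in direction, with ratios to the control of 0.410 for Col1a1 and 3.86 for Dcn with overexpression and 1.94 for Pdgfra with knockdown. The part of these markers in the proliferin values was not tested.

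The proliferin genes are near-identical copies, which bears on every value below. In mm9 (GENCODE vM1), all 4 copies with an entry under their own symbol lie on chromosome 13. Prl2c3 runs from 12883089 to 12892345 and Prl2c2 from 13088393 to 13097659, both on the reverse strand. Prl2c5 lies on the forward strand from 13274982 to 13284190, and Prl2c1 stands apart from these at 27941213 to 27949662, also on the forward strand. Each has 5 exons. Prl2c4 has no entry under that symbol in GENCODE vM1, and RefSeq, in its table for GRCm38.p6, gives it as a synonym of Prl2c3.

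The transcripts of Prl2c2 and Prl2c3, both 850 nt long, differ at only 4 bases. Counted from the transcript's 5′ end, with the base of Prl2c2 first, these are G17A, before the coding sequence, and T80C, C266A and T385G within it. Over the aligned bases, Prl2c5 was 96.7% and Prl2c1 92.8% identical to Prl2c2, against 99.5% for Prl2c3. The stretches below, 51 coding bases each, hold the differences T80C, C266A and T385G and show how little sequence tells the copies apart. Capitals mark the bases at which the 4 copies are not all the same.

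The first stretch, coding bases 1 to 51, holds T80C. In it Prl2c5 is identical to Prl2c2, Prl2c3 differs at 1 base and Prl2c1 at 8.
Prl2c2: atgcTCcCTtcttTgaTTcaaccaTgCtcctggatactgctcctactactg
Prl2c3: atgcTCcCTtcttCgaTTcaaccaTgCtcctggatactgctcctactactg
Prl2c5: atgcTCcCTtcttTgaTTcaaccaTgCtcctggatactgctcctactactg
Prl2c1: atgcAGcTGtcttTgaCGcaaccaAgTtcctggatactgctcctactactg

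The second, coding bases 175 to 225, holds C266A, and each other copy differs from Prl2c2 at 1 base.
Prl2c2: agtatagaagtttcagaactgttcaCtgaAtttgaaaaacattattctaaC
Prl2c3: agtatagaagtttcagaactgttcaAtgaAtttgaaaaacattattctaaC
Prl2c5: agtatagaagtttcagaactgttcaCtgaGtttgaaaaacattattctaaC
Prl2c1: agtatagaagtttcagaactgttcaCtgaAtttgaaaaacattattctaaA

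The last, coding bases 294 to 344, holds T385G, where Prl2c2 alone has its base. Prl2c3 differs from Prl2c2 at 1 base of this stretch, Prl2c5 at 6 and Prl2c1 at 5.
Prl2c2: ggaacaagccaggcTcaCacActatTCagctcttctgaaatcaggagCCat
Prl2c3: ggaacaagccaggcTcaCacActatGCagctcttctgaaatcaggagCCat
Prl2c5: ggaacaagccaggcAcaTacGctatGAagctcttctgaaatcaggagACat
Prl2c1: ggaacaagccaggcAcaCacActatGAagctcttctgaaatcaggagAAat

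A short read from a Prl2c2 transcript therefore often matches other copies letter for letter. Of the 815 windows of 36 nt in the Prl2c2 transcript, 84.7% were also present in Prl2c3, 30.1% in Prl2c5 and 20.9% in Prl2c1. Only 64 windows (7.85%) were found in none of these copies. At 100 nt such windows made up 34.5%. Prl2c4 and the further matches on chromosome 13 given under other observations were not among the copies compared. After T385G the Prl2c2 and Prl2c3 transcripts are the same for 465 nt, up to their 3′ end. The paper states that TopHat was run with default parameters. Neither the read length nor the counting of reads that fit several copies is given in the sources used here. How reads were divided among the rows is therefore not known.

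**Figure D1:**
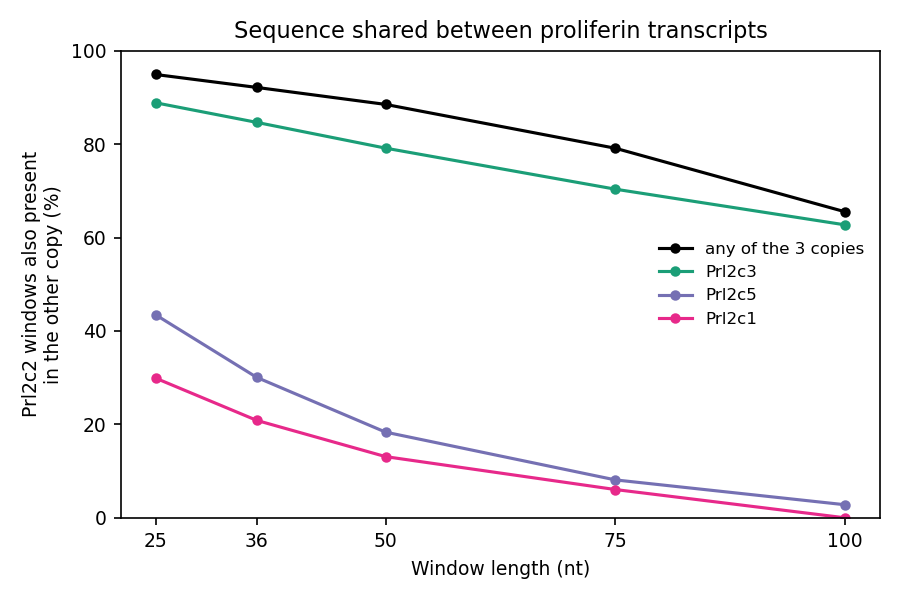
Share of windows of the Prl2c2 transcript (y axis, %) that occur letter for letter in the transcript of another copy, by window length (x axis, nt). Each line is 1 copy, and black is any of the 3. Prl2c3 shares 84.7% of windows at 36 nt and 62.7% at 100 nt, while Prl2c5 and Prl2c1 share 2.80% and 0% at 100 nt.

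Nearly all proliferin signal stood in the Prl2c2 row, and it was highest in the overexpression library. The control library gave 6.91 RPKM for Prl2c2 (95% interval 4.59 to 9.98), the overexpression library 58.3 RPKM (47.3 to 71.1) and the knockdown library 11.5 RPKM (6.67 to 18.3). These levels correspond to 28, 97 and 17 reads at a gene length of 790 nt, the only length between 500 and 1200 nt that gave whole reads in all 3 libraries. The intervals are exact and cover counting error only. That of the overexpression library lay apart from the others, which is no test, since Prl2c2 was chosen for its overexpression ratio. The control and knockdown intervals overlapped. The length of 790 nt differs from the 850 nt of GENCODE, so the gene model behind the files was another.

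The level of Prl2c2 was 8.44-fold higher with overexpression than in the control (exact 95% interval 5.49 to 13.4). With knockdown it was 1.66-fold the control (0.852 to 3.14), so a difference in either direction was not detectable at this depth. The direct ratio of overexpression to knockdown, which needs no control library, was 5.09 (3.02 to 9.09). It uses the same overexpression level by which Prl2c2 was chosen, so it is not separate support. Prl2c2 thus stood highest with overexpression, and its neighbours in the order of levels, knockdown and control, did not differ beyond counting error. As bulk RNA was sequenced, more proliferin per cell and more cells that make it cannot be told apart.

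The other copies were at or near 0. Prl2c1 and Prl2c3 were listed at 0 in all 3 libraries. A count of 0 allows up to 3 reads, which over the 850 nt of Prl2c3 would come to 0.688 RPKM for the control line, 1.68 for the overexpression line and 1.88 for the knockdown line. Prl2c4 was at 0.568 RPKM with overexpression, or 1 read at 836 nt, and was at 0 in both other libraries. Prl2c5 was at 1.37 RPKM with overexpression, or 2 reads at 694 nt or 3 at 1041 nt, and was likewise listed at 0 elsewhere. No fold is given for these copies, since all stood at or under the limit of 3 reads. The row listed as Prl2c3 had no read in the library in which Prl2c2 had 97, and the transcripts of both differ at 4 bases. The Prl2c4 row, whose symbol RefSeq gives as a synonym of Prl2c3, had 1 read there. Which copy that row stands for is not known.

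**Figure D2:**
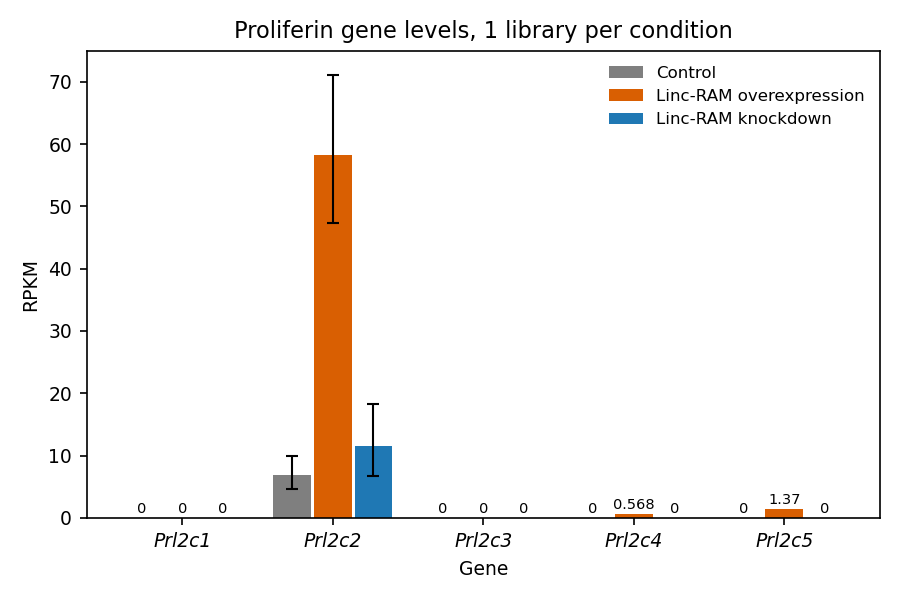
RPKM (y axis, from 0) of the 5 proliferin genes (x axis) in the control, overexpression and knockdown libraries, 1 bar per library. Black lines on Prl2c2 are exact 95% intervals of its reads. The Prl2c2 bar of the overexpression library reaches 58.3 RPKM, against 6.91 and 11.5, and the bars of Prl2c4 and Prl2c5 stand above 0 in that library alone.

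With overexpression, 3 of 100 proliferin reads lay outside Prl2c2 (3%, exact 95% interval 0.623 to 8.52%), taking 2 reads for Prl2c5. In the control it was 0 of 28 (exact 95% interval 0 to 12.3%), and with knockdown 0 of 17 (0 to 19.5%). The reads outside Prl2c2 seen with overexpression would thus not have been detectable at the number of proliferin reads in the other libraries. Adding the 5 rows gave 6.91, 60.3 and 11.5 RPKM. As the rows are scaled by different gene lengths, this sum still depends in part on how reads were divided among them. The sum was 8.72-fold the control with overexpression (5.67 to 13.7), 1.66-fold with knockdown (0.852 to 3.14) and 5.26-fold higher with overexpression than with knockdown (3.12 to 9.36). Averaged over the libraries, only Prl2c2 reached 1 RPKM, the minimum for all further comparisons.

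Set among all genes, Prl2c2 stood in the middle of the range of levels in the control and near its top with overexpression. By RPKM it ranked 4601 of 10172 genes in the control, 2844 with knockdown and 362 with overexpression. Among the 5894 genes that averaged 5 RPKM or more and were at 0 in no library, its ratio of overexpression to control ranked 2. The ranks of its ratios of knockdown to control and of overexpression to knockdown were 192 and 13. A ratio of at least 2 was reached by 3.64% of 10165 genes for overexpression against control, 3.38% of 10165 for knockdown against control and 5.83% of 10146 for overexpression against knockdown. Prl2c2 passed 2-fold in the first and the last of these. Since it was chosen by the first, which shares the overexpression library with the last, nothing further is read from either.

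**Figure D3:**
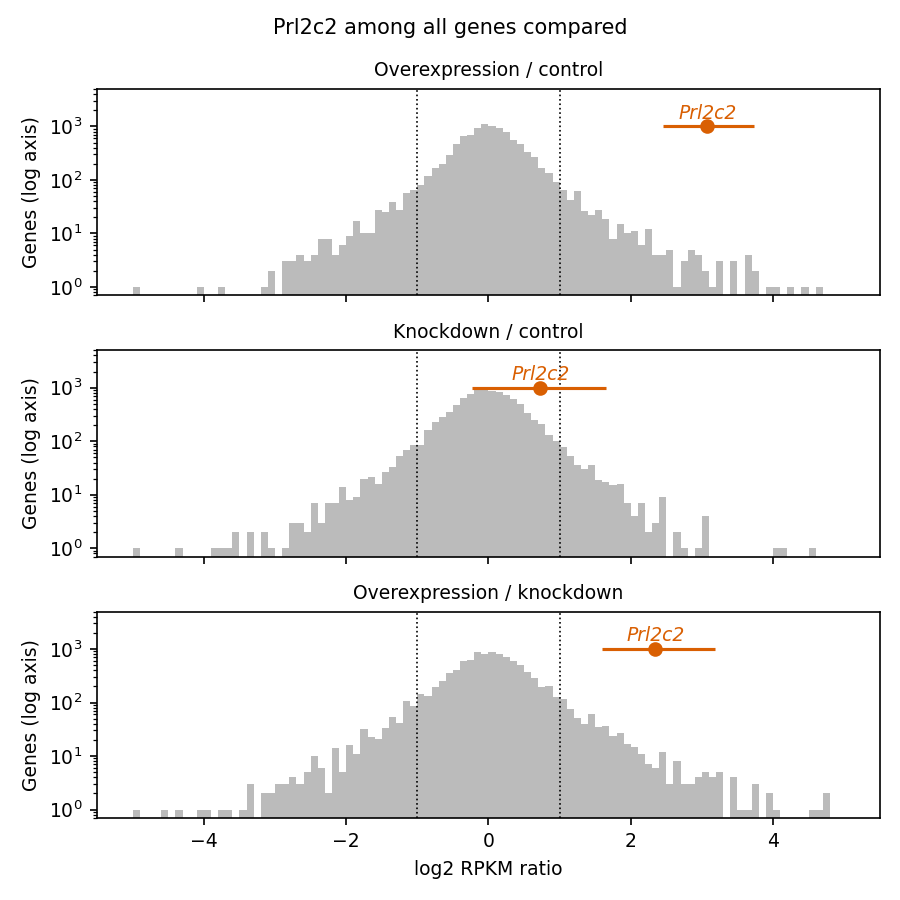
Number of genes (y axis, log scale) by log2 RPKM ratio (x axis, values beyond 5 either way in the end bins) for the 3 comparisons, over genes that averaged 1 RPKM or more. A 2-fold ratio is marked by dotted lines, and the orange point with its line is Prl2c2 with its exact 95% interval, at ratios of 8.44, 1.66 and 5.09 from top to bottom. The height of the orange point has no meaning.

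The genes beside Prl2c2 in that ranking had lower levels. Alox5, which makes leukotriene precursors, ranked 1 at 9.66-fold, from 1.93 RPKM in the control to 18.6 with overexpression. Klf2, a zinc finger transcription factor, followed Prl2c2 at 8.12-fold (1.93 and 15.7 RPKM), and Cd200, a surface glycoprotein, at 7.23-fold (2.49 and 18.0 RPKM). With knockdown Alox5, Klf2 and Cd200 were at 1.13, 1.47 and 6.81 RPKM, from 6, 5 and 30 reads. The control library is common to both ratios.

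Expression of the wider prolactin family was not detected. All 23 other genes of the family in the files, from prolactin (Prl) and growth hormone (Gh) to the placental lactogens Prl3d1 and Prl3b1, were listed at 0 in all 3 libraries. Of 12 trophoblast markers in the files, 10 were listed at 0 throughout, among them Hand1, Gcm1 and Tpbpa. The exceptions were Plac1, at 0.729 RPKM in the control, and Eomes, at 0.128 RPKM with overexpression. The listed trophoblast markers in the files were thus at or near 0, and Prl3d1 and Prl3b1 stand on both lists.

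Genes of the mannose 6-phosphate route stayed within 2-fold of the control. All 5 listed were measured, and in no comparison did any of them reach 2-fold in either direction. Over all genes, between 3.38% and 5.83% did so in each comparison and direction, so none among 5 genes is near that share. Igf2r, the receptor that binds proliferin, had 3.75 RPKM in the control line, 4.84 in the overexpression line and 2.86 in the knockdown line. Its ratios to the control were 1.29 (0.989 to 1.67) and 0.762 (0.542 to 1.06), both within counting error, and its direct ratio of overexpression to knockdown was 1.69 (1.18 to 2.45). M6pr, the smaller mannose 6-phosphate receptor, was the most abundant member at 26.6, 22.9 and 30.7 RPKM. Gnptab and Gnptg, subunits of the enzyme that starts the mannose 6-phosphate tag, had ratios of 0.869 (0.593 to 1.25) and 0.627 (0.265 to 1.33) with overexpression. Nagpa, which uncovers the tag, was at 1.58 (0.905 to 2.71). Over these 5 genes the log2 ratio had a median of −0.20 with overexpression and 0.13 with knockdown, beside 0.00 and −0.02 over all genes compared.

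The prolactin receptor gene Prlr was listed at 0 in every library, while the growth hormone receptor gene Ghr had 18.8 RPKM with knockdown, against 10.2 RPKM in the control and 9.77 RPKM with overexpression. The ratio of Ghr with knockdown was 1.84 (1.5 to 2.27). Of the 8 measured genes of prolactin and growth hormone receptor signalling, 1 passed 2-fold above the control with overexpression and none was lower by that much, beside 3.64% of all genes higher and 3.47% lower. This was Socs2, a feedback inhibitor of the growth hormone receptor. It had 8.60 RPKM in the control and 20.6 RPKM with overexpression, a ratio of 2.40 (1.84 to 3.12), and had 5.53 RPKM with knockdown. With knockdown 2 of the 8 were at least 2-fold lower, against 4.19% of all genes. These were the feedback inhibitors Cish, at 0.114 of the control (0.00277 to 0.698, from 1 read), and Socs1, at 0.304 (0.0785 to 0.847, from 4 reads). With overexpression Cish and Socs1 were at 0.609 (0.204 to 1.53) and 1.15 (0.606 to 2.10), both within counting error. Socs3, also on the list, had ratios of 0.963 (0.618 to 1.47) with overexpression and 0.776 (0.466 to 1.25) with knockdown. The kinase gene Jak2 stood at 1.02 (0.735 to 1.39) with overexpression and 1.45 (1.08 to 1.94) with knockdown. Stat5a and Stat5b, which the receptors activate, were between 2.93 and 4.71 RPKM throughout. The median log2 ratios of the 8 genes were −0.02 and −0.15, beside 0.00 and −0.02 over all genes compared.

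Among the factors that read the proliferin control element, Jun and Jund were higher with overexpression, by less than 2-fold. Of 8 listed genes of AP-1 and the glucocorticoid receptor, 7 were measured, and all 7 stayed within 2-fold of the control in both comparisons. Over all genes, 3.64% were higher and 3.47% lower by that much with overexpression, and 3.38% and 4.19% with knockdown. Jun had 46.3 RPKM with overexpression, against 25.7 RPKM in the control and 22.6 RPKM with knockdown, a ratio of 1.80 (1.55 to 2.09) with overexpression and 0.876 (0.716 to 1.07) with knockdown. Jund followed with 27.2, 47.5 and 16.1 RPKM, and its ratios were 1.75 (1.5 to 2.04) and 0.593 (0.465 to 0.749). The direct ratios of overexpression to knockdown were 2.05 (1.67 to 2.53) for Jun and 2.95 (2.32 to 3.80) for Jund, the 2 of the 7 that reached 2-fold there. Over all genes 5.83% did so, and 5.11% were lower by that much, where none of the 7 was. In this comparison 3 of 8 receptor signalling genes, 1 of 7 glucocorticoid targets and 4 of 8 myoblast markers also reached 2-fold. None on these lists was lower by that much. The receptor signalling genes were Cish at 5.35 (0.649 to 246), Socs1 at 3.79 (1.24 to 15.5) and Socs2 at 3.73 (2.45 to 5.85). The glucocorticoid target was Dusp1 at 2.62 (1.46 to 4.95). Junb, the most abundant of the 7 at 51.0 RPKM in the control, was lower with overexpression, at 35.4 RPKM (0.694, 0.570 to 0.841). Fos, Fosl1 and Fosl2 had ratios of 1.46 (0.437 to 4.44), 1.14 (0.392 to 2.96) and 1.15 (0.991 to 1.33) with overexpression, all within counting error. The receptor gene Nr3c1 was at 10.99, 8.10 and 11.5 RPKM, and its ratio with overexpression was 0.737 (0.589 to 0.917). In all, 5 of the 7 lay above the control with overexpression and 1 with knockdown, and the median log2 ratios were 0.20 and −0.29. Over all genes compared these medians were 0.00 and −0.02.

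Of 7 measured glucocorticoid target genes, 1 passed 2-fold above the control with overexpression (3.64% of all genes) and none below it (3.47%), and none did so with knockdown, beside 3.38% higher and 4.19% lower over all genes. Dusp1, a phosphatase of MAP kinases that growth factors also induce, was at 4.22, 11.5 and 4.39 RPKM, a ratio of 2.73 (1.76 to 4.24) with overexpression and 1.04 (0.546 to 1.89) with knockdown. Tsc22d3, a standard marker of glucocorticoid action, was at 15.8, 16.2 and 15.6 RPKM, with ratios of 1.03 (0.786 to 1.33) and 0.987 (0.745 to 1.30). Sgk1, a kinase, had ratios of 1.80 (1.12 to 2.87) and 1.37 (0.790 to 2.30), and the metallothionein gene Mt2 had 1.56 (1.04 to 2.33) and 1.22 (0.768 to 1.91). Fkbp5, a chaperone partner of the glucocorticoid receptor, was lower with overexpression at 0.672 (0.468 to 0.947), and its ratio with knockdown was 0.823 (0.581 to 1.15). Per1 and Klf9 were within counting error with overexpression, at 0.745 (0.342 to 1.495) and 1.20 (0.760 to 1.86). In all, 5 of the 7 lay above the control with overexpression and 4 with knockdown, and the median log2 ratios were 0.26 and 0.06. Over all genes compared these medians were 0.00 and −0.02.

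The genes most like Prl2c2 were sought by the distance between pairs of log2 ratios (overexpression and knockdown, each to the control) over the same 5894 genes, which is a likeness over 3 libraries only. The nearest was Tspan15, a tetraspanin, at a distance of 0.73 on the log2 scale. Its levels in the control, overexpression and knockdown lines were 2.11, 10.9 and 3.99 RPKM. Its ratios were 5.19 (3.50 to 7.79) and 1.89 (1.11 to 3.17). Cd200 came next at a distance of 0.75, with ratios of 7.23 (4.73 to 11.3) and 2.73 (1.59 to 4.69). Klf4, a zinc finger transcription factor, followed at 0.99 with ratios of 4.61 (3.44 to 6.20) and 1.20 (0.765 to 1.84). Igfbp5, a binding protein of insulin-like growth factors, was by far the most abundant of the 5, at 70.3, 300.02 and 104 RPKM, and had the narrowest intervals, with ratios of 4.27 (4.05 to 4.51) and 1.48 (1.38 to 1.60). Last was Myog, the transcription factor of myoblast differentiation, at a distance of 1.05 and ratios of 5.60 (3.60 to 8.91) and 0.911 (0.397 to 1.91). The control library is shared by both ratios.

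**Figure D4:**
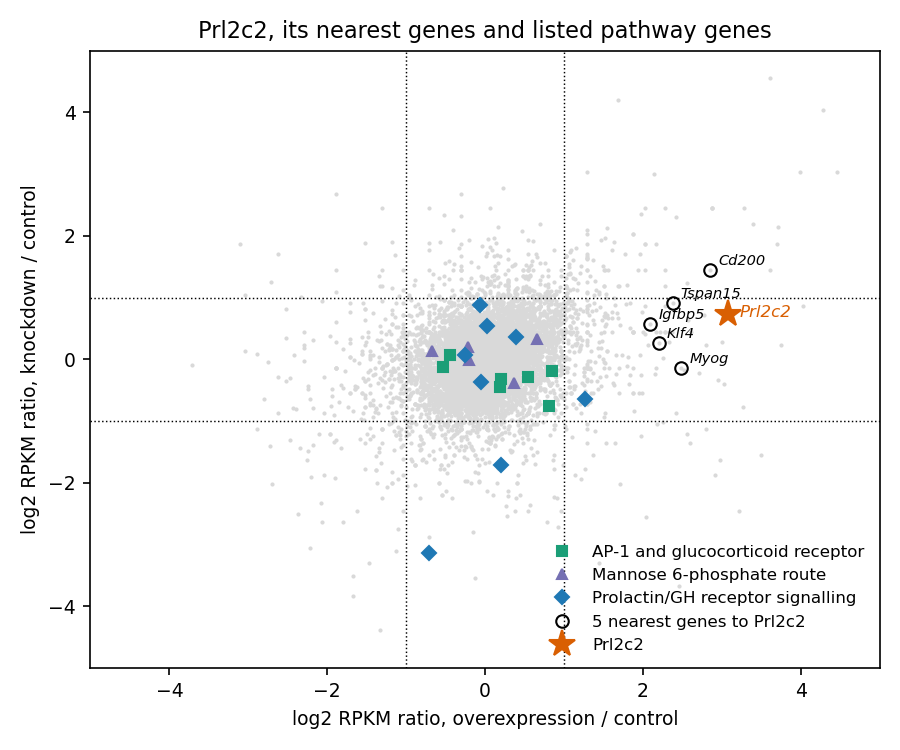
Log2 RPKM ratio of overexpression to control (x axis) against that of knockdown to control (y axis). Grey points are the 10122 genes that averaged 1 RPKM or more and were at 0 in no library, of which 3 lie outside the plotted range, and the dotted lines stand at 2-fold. Prl2c2 (star) lies far to the right at ratios of 8.44 and 1.66 with its 5 nearest genes (open circles) to its left, and the listed pathway genes lie mostly inside the dotted square.

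Of the 5 genes, Prl2c3 and Prl2c5 matched the RefSeq promoter table (GRCm38.p6, 250 bases before to 50 after the start). These promoters, on chromosome 13 at 12800030 to 12800329 and 13182466 to 13182765, were 96.0% identical. Neither held the AP-1 letters TGACTCA or TGAGTCA, which are each other's complement and occurred on either strand in 5.20% of 32851 promoters. The looser TGANTCA, which includes them, occurred once in Prl2c3 and not in Prl2c5, and in 7.81% of all promoters. Neither the E-box CANNTG, read by MyoD and myogenin and held by 72.3% of promoters, nor the glucocorticoid receptor motif TGTTCT, held by 19.0%, was found in either. This describes the letters of these windows only, and the promoter of Prl2c2 was not examined.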

How the data were processed

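The RNA of 3 stable C2C12 lines was sequenced with 1 library per condition, and groups were taken from the sample labels. TopHat (1.4.1 per the submitters' processing notes) was used by the authors with default parameters for mapping to mm9, followed by DEGSeq. The deposited unit is RPKM per gene. For the annotation, the read length and the counting of reads with several matches, the sources used here give no detail. If such reads were left out, the RPKM of near-identical copies would be too low.

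Ratios used RPKM as deposited, with no added constant, over genes that averaged 1 RPKM or more. The criterion of 2-fold follows the methods of the study. No test between conditions was made, as there was 1 library per group. Read totals were found as the smallest total at which low values came out whole at GENCODE lengths, within 0.003 reads per read: 42.5%, 48.7% and 48.7% of 1500 genes were whole, beside 8.33%, 9.33% and 9.93% at the median total searched. Reads per gene were taken at the smallest GENCODE length that gave whole reads in all libraries. Where none did, the smallest length from 200 nt that did so was used, and those reads are a lower estimate. For the Prl2c rows, lengths from 500 to 1200 nt were searched. These steps were tested on simulated data, where totals were recovered within 1 read. Clopper-Pearson 95% intervals used these reads and cover counting error only.

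The 8 gene lists and the rule for named genes were chosen with earlier results of these data known. Named were all Prl2c rows, measured members of the pathway lists, the 5 genes nearest to Prl2c2 and its neighbours in rank. Coding and transcript sequences are those of GENCODE vM1. Alternatives were added constants, other filters, another threshold, other scalings and the sum of copies. Tools were blastn 2.17.0, Biopython 1.88, scipy 1.17.1, matplotlib 3.10.9, pandas 2.3.3, numpy 2.4.6 and Python 3.11.15.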

Additional observations from a re-analysis of the deposited data

How the results depend on the processing

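The ratios of Prl2c2 and of the summed proliferin rows stayed within their 95% counting intervals in all 3 comparisons under each alternative run, namely 0.1 or 1 RPKM added (single row only), both scalings, the summed rows and the highest row alone. Numbers of genes past 2-fold changed. In the order overexpression higher and lower, knockdown higher and lower, and overexpression against knockdown higher and lower, the numbers of 370, 353, 344, 426, 592 and 518 became 101, 72, 76, 108, 201 and 117 when genes had to average 5 RPKM, where fewer genes are compared. At 1.5-fold they were 1073, 968, 1071, 1232, 1454 and 1278, and with 1 RPKM added 194, 147, 128, 174, 341 and 222. With no filter they were 897, 1643, 903, 1709, 802 and 1494. In these counts, genes at 0 in the numerator library counted as lower, while genes at 0 in the denominator library had no ratio and were left out. The excess of lower genes without a filter is therefore not read as a result. Of the listed pathway genes, the 2 at least 2-fold lower with knockdown, Cish and Socs1, fell to 0 under that filter, which both miss. No paired analysis was possible because each group has 1 library. Depth limits all copies but Prl2c2, with at most 3 reads each, and the knockdown ratio of Prl2c2, which rests on 17 and 28 reads.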

Other observations

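The Prl2c2 transcript also matched parts of chromosome 13 of mm9 that carry no Prl2c gene in GENCODE vM1. From 13413096 to 13415639, 3 blocks covered 556 nt of the 850 nt transcript at 97.5% identity, and no unknown base was found in the 10000 bases upstream. From 27808507 to 27808604, 1 block covered 98 nt at 95.9% identity.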
